A study of Mus musculus with 69 samples.

Results

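The nuclear-encoded respiratory chain genes were examined in newly made, labeled RNA and in total RNA of the mouse kidney. They were taken as the genes of the count table whose symbols begin with Ndufa, Ndufb, Ndufc, Ndufs, Ndufv, Uqcr, Cox4 to Cox8 or Atp5, together with Sdha to Sdhd. Cox7a1, Cox8b and symbols marked as pseudogenes were left out. This gave 90 of the 24411 genes in the table, and no measured value entered the choice. They comprised 7 core and 29 accessory subunit genes of complex I, 7 complex I assembly factors, 4 genes of complex II, 8 of complex III, 11 of complex IV, 5 tissue-restricted isoforms of complex IV, the pair Ndufa4 and Ndufa4l2, 15 genes of complex V, and Atp5s and Atp5sl.

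The respiratory chain passes electrons from NADH through complex I, or from succinate through complex II, to complex III and then to complex IV, which reduces oxygen. The proton gradient built up on the way drives complex V, the ATP synthase. Nuclear genes encode most of the subunits, and tubular segments of the kidney that transport much salt and solute are rich in mitochondria.

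All mice carried a floxed uracil phosphoribosyltransferase allele (UPRTf/+) and 1 of 2 Cre drivers. Hoxb7Cre acts in the collecting duct, and the driver written Atp6b1v1Cre in the labels (Atp6v1b1Cre in the study's text) acts in intercalated and double-positive cells of the collecting duct, with a few scattered interstitial cells. Every mouse received 4-thiouracil (4-TU), 430 mg/kg by intraperitoneal injection, 4 hours before the kidneys were taken. In cells with the enzyme 4-TU enters new RNA, which was then biotinylated and captured on streptavidin (Pulldown). Control mice gave 10 Hoxb7 pulldowns (4 from males, 6 from females), 11 Atp6b1v1 pulldowns (7 from males, 4 from females) and 21 total RNA libraries of the same 2 genotypes (11 from males, 10 from females), at 3 or 5.5 months of age. After ischemia (iAKI, 10 minutes of renal clamping, with 4-TU 24 hours later) there were 7 Hoxb7 and 6 Atp6b1v1 pulldowns, and after volume depletion (vAKI, 72 hours without free access to water and food) there were 7 and 7, all at 5.5 months. Injury was compared in the 22 male pulldowns of that age, in which each group had 3 or 4 libraries.

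Total counts ran from 12618062 to 30305464 per library (median 20868430). In the labels, library numbers fell into 3 runs, here called series A, B and C, and what separated the runs was not given. All injured Hoxb7 libraries were in series A, whereas the control pulldowns and the Atp6b1v1 groups spanned series. Total RNA came from the whole kidney and the pulldowns from the Cre domain, so the cell type and the age of the RNA cannot be told apart in comparisons between them. In these bulk samples, fewer cells of a type and less RNA per cell cannot be told apart either. Replicates were separate samples by their labels, and p-values measured the spread between them.

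The 90 genes held a far smaller share of labeled than of total RNA. They took up 2.35% to 2.92% of all counts in the 21 total RNA libraries (median 2.55%). In control Hoxb7 pulldowns they took up 0.425% to 0.541% (median 0.509%), and in control Atp6b1v1 pulldowns 0.477% to 0.586% (median 0.506%). No pulldown reached the level of any total RNA library, and injury left the shares in the same low range. They were 0.42% to 0.636% after ischemia and 0.412% to 0.493% after volume depletion in Hoxb7 pulldowns, and 0.512% to 0.745% and 0.419% to 0.561% in Atp6b1v1 pulldowns. Over both sexes and ages the ranges of the injured groups met those of their controls. Among males of 5.5 months, the set used for injury below, the shares after ischemia in Atp6b1v1 pulldowns (0.52% to 0.644%) lay above those of the controls (0.477% to 0.515%).

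**Figure D1:**
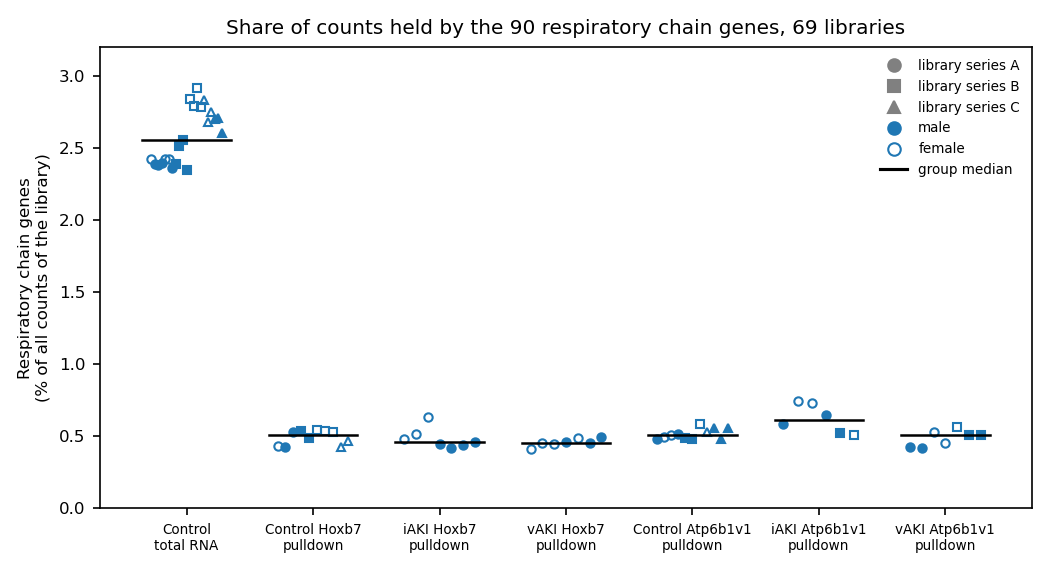
Percent of each library's counts held by the 90 respiratory chain genes (vertical axis) in 7 groups; each point is a library, filled for males and open for females, its shape gives the library series and lines are group medians. Total RNA libraries lie at 2.35% to 2.92%, and all pulldowns lie between 0.412% and 0.745%.

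In control kidneys, 86 of the 90 genes were lower in the Hoxb7 pulldown than in total RNA and 0 were higher (edgeR's quasi-likelihood test, Benjamini-Hochberg adjusted p under 0.05). Among all 21175 tested genes, 31.1% were lower and 35.6% higher. The median log2 fold change of the 90 genes was -2.98, a 7.88-fold difference, against 0.11 for all tested genes. At least 2-fold lower levels were found for 83 of them, against 17.9% of all genes, and for 83 the 10 pulldowns lay wholly below the 21 total RNA libraries, against 14.9% of all genes. In the Atp6b1v1 pulldown, 85 genes were lower (29.4% of all genes), 83 of them at least 2-fold (16.4%), with a median of -2.86. There, 82 genes lay wholly below total RNA (14.3% of all genes), and Cox8c, with 6 counts over all 69 libraries, was the 1 gene that passed as higher (34.4% of all genes). Both comparisons used the same 21 total RNA libraries. Within series A, B and C the median differences in log2 CPM were -2.96, -2.92 and -3.16 for Hoxb7 and -2.81, -2.89 and -2.90 for Atp6b1v1.

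The core subunits of complex I carry the flavin and the iron-sulfur clusters that hand on electrons, and all 7 were lower in both pulldowns, with medians of -2.77 and -2.72. Ndufv1, which binds NADH (chromosome 19, 4007384 to 4012806, GRCm38), ranged from 329.9 to 496.1 CPM (counts scaled to a common, TMM-normalized library total) in total RNA (median 409.2) and from 46.5 to 68.2 CPM in Hoxb7 pulldowns (median 58.6). The groups did not overlap, and the log2 fold change was -2.81 ± 0.06 (SE, adjusted p = 6.9e-37). Ndufs1, the subunit with the most iron-sulfur clusters, differed least among the core subunits, at -1.75 ± 0.07 (adjusted p = 1.08e-26). Of the 29 accessory subunits, 28 were lower in each pulldown. Ndufa1, a small membrane subunit, fell from a median of 132.1 CPM (102.9 to 163.4) in total RNA to 5.90 CPM (4.45 to 6.95) in Hoxb7 pulldowns, a log2 difference of -4.46 ± 0.08. The accessory gene that did not pass, Ndufs5, had 8 counts over all 69 libraries, too few to show a difference.

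Complex II belongs to both the citrate cycle and the respiratory chain, and its 4 genes had medians of -2.74 in Hoxb7 and -2.66 in Atp6b1v1 pulldowns. Sdha, the flavoprotein subunit, had medians of 1205 CPM in total RNA and 229.2 CPM in Hoxb7 pulldowns (-2.40 ± 0.09). Sdhb, the iron-sulfur subunit, had medians of 526.9 and 57.6 CPM (-3.19 ± 0.06). In complex III all 8 genes were lower, with medians of -2.96 and -2.92. Uqcr11, a small subunit, had the lowest fold change of all 90 genes in the Hoxb7 pulldown. It ranged from 133.3 to 200.2 CPM in total RNA (median 158.9) and from 5.70 to 8.69 CPM in Hoxb7 pulldowns (median 7.42), so that the groups did not overlap, a log2 difference of -4.49 ± 0.09 (22.4-fold, adjusted p = 9.32e-38). Uqcrfs1, the Rieske iron-sulfur protein, differed less, at -2.42 ± 0.09.

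Complex IV had the lowest median of the complexes in both pulldowns, at -3.56 and -3.49, and all 11 of its genes were lower. Cox4i1, a subunit needed for its assembly, ranged from 708.6 to 953.9 CPM in total RNA and from 38.01 to 59.69 CPM in Hoxb7 pulldowns, a log2 difference of -4.08 ± 0.08 (17.0-fold). Cox6a1 differed by -4.21 ± 0.09 and Cox5b by -3.55 ± 0.11, and Cox7a2l, a factor of supercomplex assembly, by only -1.75 ± 0.08. Ndufa4, which was named for complex I and is now counted as a subunit of complex IV, differed by -3.89 ± 0.09.

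All 15 genes of complex V were lower, with medians of -3.03 in Hoxb7 and -2.89 in Atp6b1v1 pulldowns. The catalytic subunit Atp5b had the highest counts, with a median of 4408 CPM in total RNA and 683.6 CPM in Hoxb7 pulldowns (-2.69 ± 0.07). Atp5e, a small subunit of the central stalk, had medians of 221.1 and 10.9 CPM (-4.40 ± 0.09). The 3 genes Atp5g1, Atp5g2 and Atp5g3 encode the same mature c-ring subunit, and they differed by -3.03 ± 0.07, -2.66 ± 0.07 and -2.82 ± 0.09. Per kilobase of mRNA, the total RNA level of Atp5g3 was 1373 CPM, that of Atp5g2 71.4 CPM and that of Atp5g1 42.8 CPM. These values divide by the length of a single annotated transcript per gene and depend on that choice. Undivided, the mean count over all control libraries was higher for Atp5g1 (2299) than for Atp5g2 (614), so the order of Atp5g1 and Atp5g2 is uncertain. Near-identical copies could take reads from Atp5g2, so its level is uncertain.

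**Figure D2:**
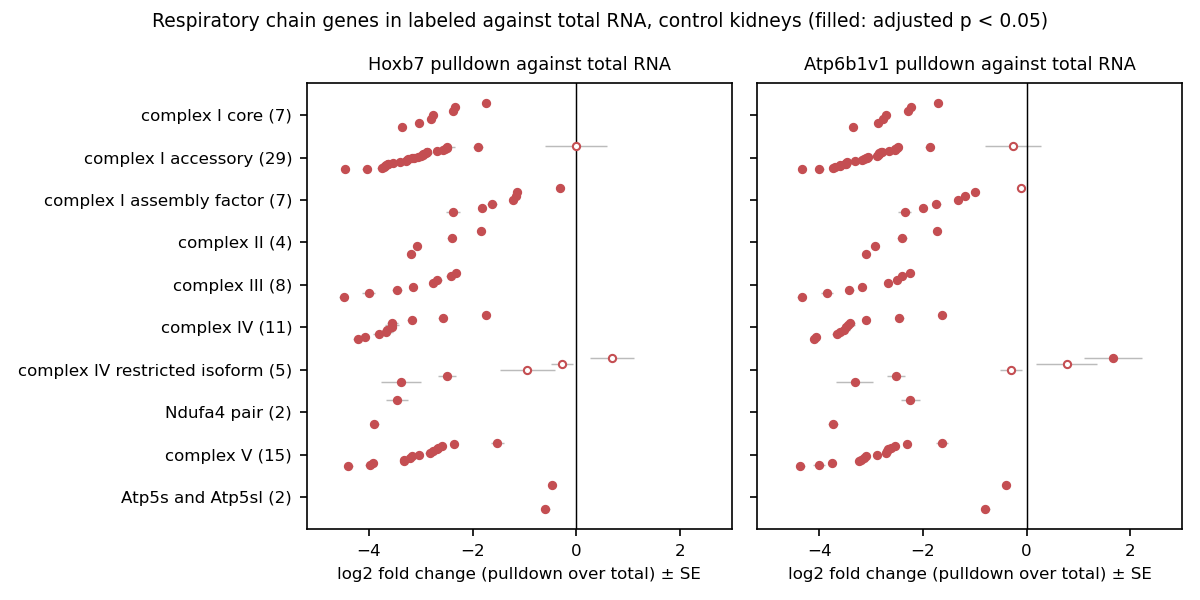
Log2 fold change ± SE of each gene in control pulldown over total RNA (horizontal axis), by complex (vertical axis, number of genes in parentheses), for Hoxb7 on the left and Atp6b1v1 on the right; filled points had an adjusted p under 0.05. Complexes I to V lie to the left of 0, while assembly factors, Atp5s and Atp5sl lie nearer to it.

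The assembly factors stood nearer to 0. Their 7 genes, whose products build complex I but do not stay in it, had medians of -1.22 in Hoxb7 and -1.32 in Atp6b1v1 pulldowns. Ndufaf4 had the smallest difference, with medians of 73.98 CPM in total RNA and 61.52 CPM in Hoxb7 pulldowns (-0.32 ± 0.08, adjusted p = 0.000263), and of 67.54 CPM in Atp6b1v1 pulldowns (-0.11 ± 0.07, adjusted p = 0.203). Its total RNA and pulldown ranges overlapped. Ndufaf2 was the lowest of the 7, at -2.38 ± 0.13. Atp5s and Atp5sl, which are not among the subunits of the core ATP synthase, differed by -0.60 ± 0.09 and -0.46 ± 0.05 in the Hoxb7 pulldown. Of 38 further assembly factors of complexes I to V, 33 were lower and 4 higher, with a median of -0.96.

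The isoforms that other tissues favor were rare in these kidneys. Cox4i2, the counterpart of Cox4i1 that is expressed in lung and at low oxygen, had medians of 1.08 CPM in total RNA and 0.881 CPM in Hoxb7 pulldowns, and its difference did not pass (-0.27 ± 0.21, adjusted p = 0.264). Cox6a2, the muscle isoform of Cox6a1, was at 3.02 and 0.227 CPM (-3.38 ± 0.39), and Cox6b2, the testis isoform of Cox6b1, at 6.90 and 1.14 CPM (-2.50 ± 0.17). Cox7b2 and Cox8c had 5 and 6 counts over all 69 libraries. Ndufa4l2, a relative of Ndufa4 induced by low oxygen, ranged from 1.52 to 4.14 CPM in total RNA, from 0.0915 to 0.476 CPM in Hoxb7 pulldowns and from 0.392 to 1.01 CPM in Atp6b1v1 pulldowns. It was the single gene that differed by 2-fold or more between the pulldowns, being 2.33-fold higher in the Atp6b1v1 pulldown (log2 1.22 ± 0.24, adjusted p = 0.000168), although their ranges overlapped (2.58% of all genes were higher by that much).

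Between the control pulldowns the 90 genes otherwise differed little, with a median log2 difference of 0.06 for Atp6b1v1 over Hoxb7. In addition to Ndufa4l2, Ndufb9 was higher in the Atp6b1v1 pulldown (0.22 ± 0.07, adjusted p = 0.0446), which made 2 higher and 0 lower genes, against 5.73% and 4.20% of all genes. For Ndufb9 the call held in only 1 of 9 other settings. Within series A, B and C the median difference was 0.11, 0.001 and 0.22.

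Promoter sequences are given for 3 genes, picked because the window holds a match to both an NRF1 and an ETS motif. What they share is the low level in the control pulldowns. Uqcr11 had the lowest fold change in the Hoxb7 pulldown and Cox6a1 that of complex IV. Sdhb passed in both kinds of comparison, with total RNA and after ischemia. In Hoxb7 pulldowns of males after ischemia, Sdhb differed by -0.36, whereas Uqcr11 (0.15) and Cox6a1 (-0.10) did not pass. A link between the motifs and these levels was not tested. The windows are from RefSeq on GRCm38.p6 and run from 250 bases before to 50 bases after the start of the gene, chr10:80406772-80407071 (minus strand), chr5:115348909-115349208 (minus strand) and chr4:140961021-140961320 (plus strand). Capitals mark the motif matches on either strand.
Uqcr11: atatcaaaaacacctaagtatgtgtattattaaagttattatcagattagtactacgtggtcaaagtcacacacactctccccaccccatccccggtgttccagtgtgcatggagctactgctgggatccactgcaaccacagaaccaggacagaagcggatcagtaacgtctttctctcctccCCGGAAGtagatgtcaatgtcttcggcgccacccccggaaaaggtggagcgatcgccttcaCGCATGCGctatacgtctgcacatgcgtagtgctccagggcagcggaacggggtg
Cox6a1: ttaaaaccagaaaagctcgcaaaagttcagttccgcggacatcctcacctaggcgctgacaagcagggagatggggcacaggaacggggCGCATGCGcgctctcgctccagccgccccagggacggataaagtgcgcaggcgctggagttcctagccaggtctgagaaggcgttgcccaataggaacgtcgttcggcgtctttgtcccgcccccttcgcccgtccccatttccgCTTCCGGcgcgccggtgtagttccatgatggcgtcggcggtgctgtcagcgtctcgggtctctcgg
Sdhb: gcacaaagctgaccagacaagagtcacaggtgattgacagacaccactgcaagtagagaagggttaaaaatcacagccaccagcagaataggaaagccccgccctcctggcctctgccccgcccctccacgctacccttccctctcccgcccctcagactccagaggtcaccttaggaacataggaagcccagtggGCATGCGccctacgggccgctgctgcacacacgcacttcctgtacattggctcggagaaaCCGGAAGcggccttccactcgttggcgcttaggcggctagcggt
Motifs of 4 known kinds of regulators of mitochondrial genes were searched on both strands. The NRF1 motif GCATGCG was found in 16.2% of the 74 windows matched to the 90 genes and in 3.64% of all 27025 windows, or 4.62% of the 17224 windows of genes in the count table. The corresponding shares were 21.6%, 9.12% and 11.7% for CCGGAAG, bound by ETS factors such as GABPA, 10.8%, 4.66% and 4.09% for AAGGTCA, bound by estrogen-related receptors, and 14.9%, 6.48% and 6.54% for AAGATGG, bound by YY1. A match describes these letters and is not a measured site. The windows of the 90 genes were richer in G and C (median 58.5%) than all windows (52.7%) and those of the count table (56.3%).

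The mRNAs of the 90 genes were short, with a median of 908 bases against 2778 bases for all tested genes, and 55.1% were under 1000 bases, against 8.07%. Among 86 of them with at least 10 counts on average, the log2 fold change of the Hoxb7 pulldown rose with mRNA length (Spearman's rho 0.54 across genes), and with the number of U bases, into which the label enters (0.55). Across all 18305 genes with a length the values were 0.38 and 0.40. Genes are not independent replicates here, and all values came from the same libraries. Under 600 bases the median was -3.60 for 18 of the genes and -0.69 for all genes, and between 2000 and 4000 bases it was -2.12 for 8 of the genes and 0.05 for all genes. In each of the 5 length ranges the median of the respiratory chain genes thus lay below that of all genes. The longest range held only 2 of the genes (-3.14 against 0.59). Lengths were those of a single annotated transcript per gene, which may differ from the mRNA in the kidney, so that range shows little about long mRNAs.

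Other gene groups are given for orientation, each from a list chosen with earlier results of these data known. Of 84 cytosolic ribosomal protein genes 81 were lower in the Hoxb7 pulldown (median -3.05), close to the respiratory chain genes. Smaller differences were found for mitochondrial ribosomal protein genes (74 of 77 lower, median -1.60), the citrate cycle and pyruvate dehydrogenase (17 of 17, -1.53) and electron and nucleotide carriers (15 of 16, -1.60). Of 18 regulators of mitochondrial genes, such as Ppargc1a and Nrf1, 11 were higher and 3 lower (median 0.72). Of 22 mRNAs known as short-lived, such as Fos and Jun, 10 were higher and 3 lower (0.35). Among all tested genes, 35.6% were higher and 31.1% lower in this comparison. Proximal tubule markers moved with the respiratory chain genes, 11 of 12 being lower (-2.72), and their summed level was 24500 to 37680 CPM in total RNA and 7596 to 15360 CPM in Hoxb7 pulldowns. Markers of the thick ascending limb of Henle's loop (TALH) were lower in 5 of 6, with summed levels of 7406 to 14090 CPM in total RNA and 1485 to 4249 CPM in Hoxb7 pulldowns. All 6 principal cell markers were higher. The part of the tubular segments in the result was not tested.

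After ischemia, 4 of the 90 genes fell in Hoxb7 pulldowns of males and 0 rose, against 2.79% and 3.34% of all genes. They belonged to complexes II to V. Uqcrfs1 was at 88.7, 104.2, 120.7 and 108.8 CPM in the 4 controls and at 69.8, 70.7, 80.5 and 73.95 CPM in the 4 iAKI libraries, a log2 fold change of -0.52 ± 0.14 (adjusted p = 0.0284). Cox5a, a matrix-side subunit of complex IV, was at 60.4, 71.5, 82.98 and 80.6 CPM and at 52.0, 49.6, 52.8 and 52.1 CPM (-0.52 ± 0.16, adjusted p = 0.0486). The c-ring gene Atp5g3 fell by 0.46 and Sdhb by 0.36 on the log2 scale (adjusted p = 0.0365 and 0.0443). In each of the 4 genes the iAKI libraries lay below all controls, as they did in 20 of the 90 genes, against 7.13% of all genes. The 11 genes of complex IV all had negative values (median -0.12), with 1 past the threshold. The median of the 90 genes was -0.13 against all 4 controls and that of 86 genes was -0.05 in log2 CPM against the 2 controls of series A. The count of 4 became 0 without iAKI replicate 4, 5 or 7 or control replicate 3, 4 or 5, 1 without iAKI replicate 6, 8 without control replicate 2, and 2 without any 1 of vAKI Hoxb7 replicates 6 and 7 and control Atp6b1v1 replicates 6, 9, 10 and 11, which entered the shared spread. With both sexes and sex as covariate 1 gene passed, as higher. In females the median of the 90 genes was 0.20, in a fit of both sexes with separate groups chosen after seeing the data. That fit called 6 genes higher and 1 lower, against 13.4% of all genes in either direction, and a fit of females alone called 0. Of the 4 genes above, Uqcrfs1 (-0.18) and Atp5g3 (-0.088) were negative in the fit of both sexes, and Sdhb (0.055) and Cox5a (0.087) positive. The female Hoxb7 controls of 5.5 months were replicate 1 in series A, 6 in series B and 9 and 10 in series C. The part of the library series in the female values was not tested.

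Principal cell markers were lower in 5 of 6 after ischemia in the Hoxb7 pulldowns of males, with summed levels of 1102 to 1374 CPM against 2960 to 3727 CPM in controls. Brown fat markers were lower in 4 of 5, with summed levels of 2.45 to 9.39 CPM against 24.86 to 83.67 CPM. Neither pair of ranges overlapped, and the part of these cells in the values of the respiratory chain genes was not tested.

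After volume depletion more of the genes changed, in both directions. In Hoxb7 pulldowns of males 13 rose and 6 fell, against 17.9% and 17.6% of all genes, and the median was 0.05. The 13 did not exceed the share of all genes. Across 85 of the genes the log2 fold change rose with the G and C content of the mRNA (Spearman's rho 0.47) and fell with its length (-0.27). Across all genes with a length the values were 0.20 and -0.06, and what lies behind them was not tested. With both sexes and sex as covariate 3 rose and 1 fell, and in a fit of females alone 0 passed. Among the 13 were Ndufa4l2 and 2 of the 5 restricted isoforms of complex IV, Cox6b2 and Cox4i2. Cox6b2 (chromosome 7, 4751792 to 4753094) was at 1.28, 1.63, 1.08 and 1.29 CPM in the controls and at 2.10, 4.18 and 3.60 CPM in the 3 vAKI libraries, a log2 fold change of 1.32 ± 0.28 (adjusted p = 0.00072). Its groups did not overlap. Ndufa4l2 was at 0.183, 0.210, 0.538 and 0.104 CPM in the controls and at 0.830, 0.552 and 0.676 CPM after volume depletion (1.39 ± 0.44, adjusted p = 0.0158). Cox4i2 was at 0.503, 0.367, 0.700 and 0.828 CPM and at 1.11, 0.947 and 2.57 CPM (1.36 ± 0.42, adjusted p = 0.0149). Levels of these 3 genes were low throughout, and the call was lost for Ndufa4l2 without vAKI replicate 4 or control replicate 5 and for Cox4i2 without vAKI replicate 7 or control replicate 3, with adjusted p up to 0.0584 and 0.219. In females alone Cox6b2 had a value of 1.15, whereas the sign turned for Ndufa4l2 (-0.28) and Cox4i2 (-0.91).

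The other 10 genes that rose encode subunits. Cox4i1 was at 42.7, 51.0, 62.7 and 55.7 CPM in the controls and at 69.03, 71.9 and 72.4 CPM after volume depletion (0.42 ± 0.13, adjusted p = 0.0142), a call that was lost without control replicate 2 (adjusted p = 0.0577). Ndufv1 rose by 0.46 ± 0.11 (adjusted p = 0.00174), and its groups did not overlap. Ndufs7, Ndufa7, Ndufa13 and Ndufb7 of complex I, Uqcrq of complex III, Cox6c of complex IV and Atp5d and Atp5l of complex V rose by 0.46 to 0.99, and they are named after their values were seen, to complete the count. Atp5l has 9 copies among other annotated genes at 95% identity or more, 3 of them at 98% or more, so its value is uncertain. All 11 genes of complex IV had positive values (median 0.29). The value of Cox4i1 was -0.038 in females alone.

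Of the 6 genes that fell after volume depletion, 4 do not encode subunits. Atp5s (chromosome 12, 69724950 to 69744660) was at 14.6, 14.3, 14.9 and 14.4 CPM in the controls and at 7.8, 5.6 and 9.1 CPM after volume depletion, a log2 fold change of -0.96 ± 0.15 (adjusted p = 3.44e-05). Ndufaf5, which modifies the core subunit Ndufs7, was at 9.79, 8.29, 9.04 and 9.68 CPM and at 5.7, 5.6 and 5.13 CPM (-0.75 ± 0.14, adjusted p = 0.000294). For both genes the groups did not overlap, and the calls held without any 1 of the 22 libraries. They did not hold in females alone, where Atp5s had a value of -0.40 and Ndufaf5 of 0.054. The response of Ndufaf5 differed between the sexes by -0.79 (males minus females, adjusted p = 0.0151), in a fit without a term for the library series. The assembly factors Ndufaf4 (-0.52) and Ndufaf3 (-0.51) fell as well, and so did the subunits Sdha (-0.44 ± 0.17, adjusted p = 0.0469) and Ndufa9 (-0.32). The call for Sdha was lost in 13 of the 22 fits that left out 1 library, and that for Ndufaf4 in 4. In females alone the signs of Sdha (0.26) and Ndufaf4 (0.13) were positive. Within series A, Atp5s differed by -0.97 and Ndufaf5 by -0.71.

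Markers of cell types moved in the same libraries. Principal cell markers were lower in 6 of 6 and intercalated cell markers in 4 of 7 after volume depletion, and the summed level of the principal cell markers was 1216 to 1322 CPM against 2960 to 3727 CPM in controls. The 12 proximal tubule markers summed to 16270 to 19250 CPM against 8597 to 13030 CPM, although only 2 of them passed as higher. Markers of the TALH were lower in 5 of 6 (summed levels of 1302 to 1509 CPM against 2535 to 4244 CPM) and brown fat markers in 3 of 5 (4.48 to 19.01 CPM against 24.86 to 83.67 CPM). All 22 short-lived mRNAs rose (median 3.35). The part of these in the values of the respiratory chain genes was not tested.

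**Figure D3:**
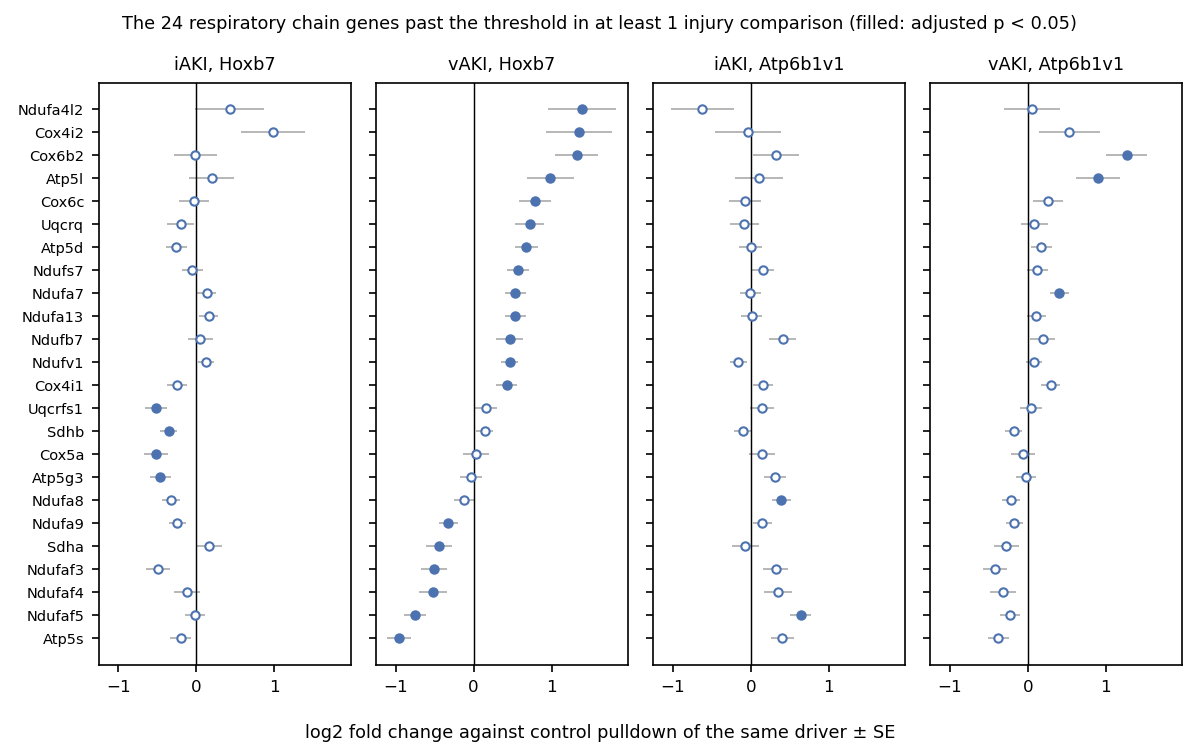
Log2 fold change ± SE against the control pulldown of the same driver (horizontal axis) for the 24 respiratory chain genes that passed in at least 1 of the 4 injury comparisons, 1 panel per comparison; filled points had an adjusted p under 0.05. Filled points are most frequent after volume depletion in the Hoxb7 pulldown, where 13 lie to the right of 0 and 6 to the left.

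In Atp6b1v1 pulldowns of males, 2 of the 90 genes rose after ischemia and 0 fell, against 3.77% and 4.74% of all genes. Ndufaf5 was at 7.60, 7.00, 8.23 and 7.63 CPM in the 4 controls and at 12.9, 12.1 and 10.6 CPM in the 3 iAKI libraries (0.64 ± 0.14, adjusted p = 0.00688). Ndufa8, an accessory subunit, rose by 0.39 ± 0.12 (adjusted p = 0.0478). Both genes lay above all controls, and 71 of the 90 genes had positive values (median 0.16). The median difference in log2 CPM was 0.24 in series A and 0.04 in series B, which held 1 iAKI library. The count of 2 became 0 without iAKI replicate 1, 12 without iAKI replicate 5 (the library of series B), 4 without vAKI Atp6b1v1 replicate 1, and 1 without any 1 of 13 other libraries, which were iAKI Atp6b1v1 replicate 4, iAKI Hoxb7 replicates 4, 6 and 7, vAKI Hoxb7 replicates 6 and 7, vAKI Atp6b1v1 replicate 6, control Hoxb7 replicates 3 and 5, and control Atp6b1v1 replicates 6, 9, 10 and 11. Of 84 cytosolic ribosomal protein genes 39 rose (median 0.53), and 3 of 12 proximal tubule markers were lower. The proximal tubule markers summed to 5689 to 9617 CPM against 9944 to 13270 CPM in controls. Muscle markers summed to 22.28 to 29.54 CPM against 12.32 to 19.55 CPM, and neither pair of ranges overlapped. Brown fat markers summed to 55.08 to 107.6 CPM against 20.51 to 67.34 CPM, with overlap. The part of these in the values of the respiratory chain genes was not tested. With females added, 28 respiratory chain genes passed, a count given without the share of all genes in that setting. In a fit of both sexes with separate groups, chosen after seeing the data, 13 of the 90 genes rose in females and 0 fell, against 10.4% of all genes in either direction, and 2 rose in a fit of females alone.

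After volume depletion, 3 genes rose in Atp6b1v1 pulldowns and 0 fell, against 8.11% and 6.47% of all genes. Cox6b2 was at 0.778, 1.37, 1.25 and 0.968 CPM in the controls and at 3.66, 2.61, 1.98 and 2.11 CPM in the 4 vAKI libraries (1.27 ± 0.27, adjusted p = 0.00314), with no overlap, and its call held without any 1 library. Atp5l rose by 0.90 ± 0.28 (adjusted p = 0.0348), with the same doubt about its copies, and Ndufa7 by 0.40 ± 0.12 (adjusted p = 0.03). These 3 genes also rose after volume depletion in the Hoxb7 pulldown, whose controls were other libraries. In series A and B, Cox6b2 differed by 1.49 and 0.84, Ndufa7 by 0.36 and 0.46, and Atp5l by 0.40 and 1.23. The median of all 90 genes was -0.02, but in log2 CPM it was -0.21 in series A and 0.19 in series B. The count of 3 became 1 without vAKI replicate 6 or 7 or control replicate 6 or 10, and 5 without vAKI replicate 1. With both sexes and sex as covariate it was 12. Intercalated cell markers were lower in 4 of 7, with summed levels of 638.5 to 864.3 CPM against 985 to 1332 CPM in controls. Markers of the TALH were lower in 2 of 6 (1486 to 1763 CPM against 1835 to 3564 CPM). Brown fat markers summed to 7.37 to 17.25 CPM against 20.51 to 67.34 CPM, and white fat markers to 64.38 to 85.76 CPM against 95.96 to 181.8 CPM. None of these pairs of ranges overlapped, and the part of these cells in the values of the respiratory chain genes was not tested.

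**Figure D4:**
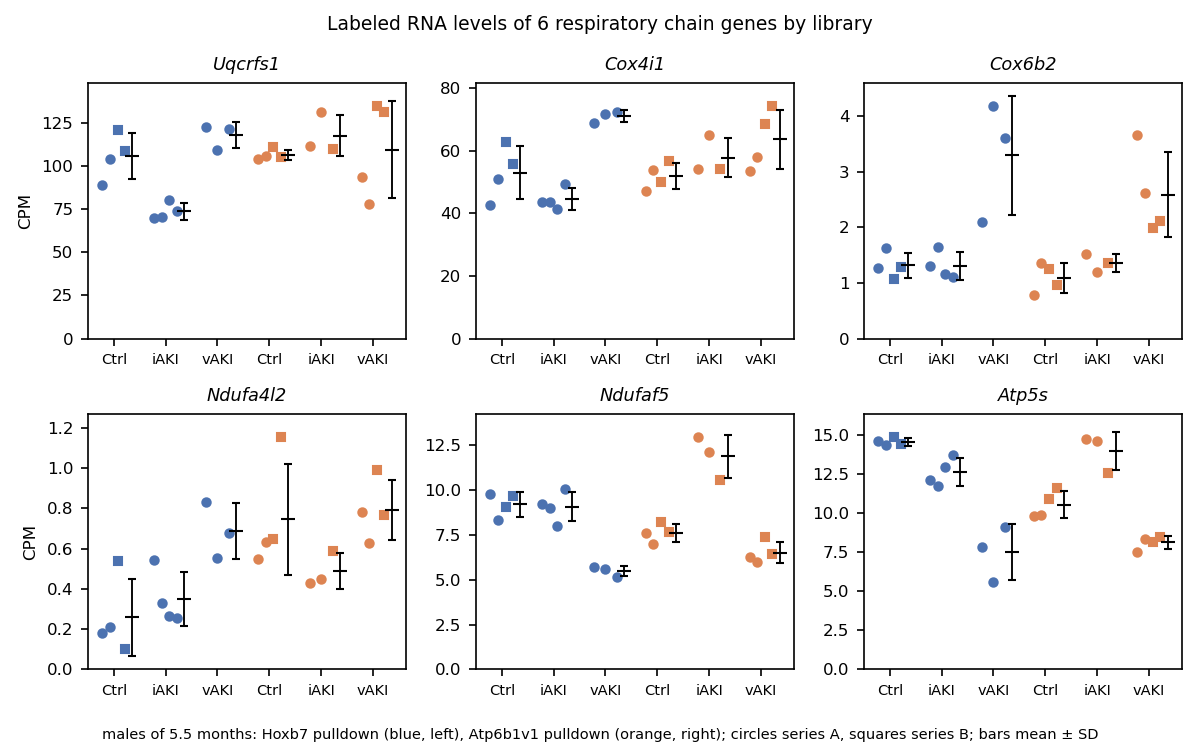
Normalized CPM (vertical axis, from 0) of 6 respiratory chain genes in the 22 male pulldown libraries, by treatment for Hoxb7 (blue) and Atp6b1v1 (orange); circles are series A, squares series B and bars mean ± SD. Cox6b2 lies above its controls in all 3 and all 4 vAKI libraries.

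The difference between drivers was tested in the same fit. After ischemia 10 genes responded more positively in the Atp6b1v1 than in the Hoxb7 pulldown and 0 less, against 3.67% and 4.11% of all genes. Among them were Ndufc2 (0.82 ± 0.23), Ndufaf3 (0.82 ± 0.23), Uqcrh (0.81 ± 0.23), Atp5g3 (0.77 ± 0.19), Ndufa8, Ndufb10, Uqcrfs1, Ndufaf5 and Atp5f1, with adjusted p from 0.0128 to 0.0499. Of these, Uqcrfs1 and Atp5g3 fell in the Hoxb7 pulldown, and Ndufaf5 and Ndufa8 rose in the Atp6b1v1 pulldown. The count was 22 without iAKI Atp6b1v1 replicate 5 and 16 without vAKI Atp6b1v1 replicate 7. It was 1 without iAKI Atp6b1v1 replicate 4, 2 without iAKI Atp6b1v1 replicate 1, and 3 to 6 without any 1 of iAKI Hoxb7 replicates 4 to 7, control Hoxb7 replicates 3 and 4 and control Atp6b1v1 replicates 6, 9 and 11. After volume depletion 0 genes passed (edgeR), against 4.20% of all genes in either direction; 10 had an unadjusted p under 0.05, DESeq2 called 2, and edgeR called 1 without control Hoxb7 replicate 4.

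Volume depletion and ischemia were also set against each other directly. In Hoxb7 pulldowns 26 genes were higher after volume depletion and 3 lower, against 16.4% and 16.9% of all genes (median 0.21). Cox6b2 (1.34 ± 0.28), Atp5d (0.93 ± 0.14) and Uqcrq (0.92 ± 0.18) were the highest, and Atp5s (-0.75 ± 0.15), Ndufaf5 (-0.73 ± 0.14) and Sdha (-0.61 ± 0.17) the lowest. All 7 of these libraries were in series A, and the count was 17 without vAKI replicate 7. With both sexes and sex as covariate it was 12 (8 higher and 4 lower). By complex, 8 of 15 genes of complex V, 5 of 11 of complex IV and 3 of 8 of complex III were higher. Some core and accessory subunits of complex I were higher as well, such as Ndufs7 (0.62) and Ndufv1 (0.34), and so was Sdhb of complex II (0.50). In Atp6b1v1 pulldowns 2 genes were higher and 22 lower, against 15.0% and 14.3% of all genes (median -0.16). Ndufaf5 (-0.87 ± 0.14), Atp5s (-0.78 ± 0.14) and Ndufaf2 (-0.76 ± 0.24) were the lowest, 5 of 7 assembly factors were lower, and Cox6b2 (0.94 ± 0.29) and Ndufa7 (0.41 ± 0.13) were higher. The direction of the median turned between series, at -0.45 in log2 CPM in series A (76 of 86 genes negative) and 0.17 in series B (67 of 86 positive, with 1 iAKI library). Ndufaf5 differed by -1.02 in series A and -0.61 in series B. The count of 24 was 11 without iAKI replicate 4 and 13 without iAKI replicate 1.

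Sex was compared in control total RNA. In males 20 of the 90 genes were higher and 2 lower, against 17.0% and 12.4% of all genes (median 0.08). Ndufv1 ranged from 409.2 to 496.1 CPM in 11 male libraries (median 448.9) and from 329.9 to 392.6 CPM in 10 female libraries (median 370.0), with no overlap (0.32 ± 0.05, adjusted p = 6.26e-06). Groups were apart in 3 genes, against 4.67% of all genes. Ndufaf1 (0.44 ± 0.07), Ndufaf6 (0.40 ± 0.09) and Ndufv3 (0.34 ± 0.06) had the largest positive values. Of the 5 restricted isoforms of complex IV 2 were lower in males. Cox4i2 had medians of 0.536 CPM in males and 1.32 CPM in females (-1.05 ± 0.22, adjusted p = 0.000286), and Cox6b2 of 4.61 and 9.20 CPM (-0.84 ± 0.16, adjusted p = 7.17e-05). The median difference of the genes in log2 CPM was 0.10 in series A, 0 in series B and 0.17 in series C, where all males were 3 months old and all females 5.5 months old, so that sex and age cannot be told apart. With mice of 5.5 months only, 13 genes passed.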

How the data were processed

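The RNA was isolated with Trizol, its thiol groups were coupled to biotin-HPDP, the coupled RNA was bound to streptavidin beads, and libraries were made with an Illumina TruSeq kit after poly(A) selection. Per the labels, the authors used CASAVA 1.8.2, Trimmomatic 0.36, STAR 2.5.3a and HTSeq 0.6.1p2 with mm10. They deposited 1 table of raw read counts per gene. Whether counting used strand was not given in the sources used here, nor whether a pulldown and a total RNA library came from the same mouse, and the fits took all libraries as independent. Libraries were grouped by their titles.

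The counts were tested in R 4.3.3 with edgeR 4.0.16 (quasi-likelihood test, TMM normalization, Benjamini-Hochberg adjustment over 21175 genes with a sum of 2 or more counts in all libraries, threshold 0.05). Control pools were fitted over 42 libraries with sex as covariate. Injury was fitted over the 22 males of 5.5 months in 6 groups, which share 1 spread. The comparison of sexes used means per RNA pool and sex. All 90 genes were tested. An average of at least 10 counts was reached by 87 of them in the control fit and 86 in the male fit. CPM are counts scaled to the TMM-normalized library total within each fit. Named genes were the 3 highest and 3 lowest past the threshold with at least 10 counts on average in each comparison, 12 core subunits and the isoform pairs, and 1 gene is not reported here by name. The 90 genes, the lists and this rule were chosen with earlier results of these data known. Alternatives included DESeq2 1.42.0, other filters and size factors, other samples, the library series or the replicate number as a term, and leaving out each library. Lengths and coordinates came from the GENCODE annotation of GRCm38, with a single transcript per gene for the length. Promoters came from RefSeq for GRCm38.p6, and 74 of the 90 genes matched a promoter (71 by symbol, 3 by synonym). In a search of annotated transcripts with blastn, 10 of 89 genes had a copy in another gene. The copies had at least 95% identity over at least 50% of the mRNA. These genes were Atp5c1, Atp5g2, Atp5h, Atp5k, Atp5l, Cox7c, Ndufb11, Ndufs3, Ndufs6 and Uqcrb, and their counts are uncertain. Scripts were tested on simulated data. Depth covers counting error only, and the floor of 3 counts limits the rarest isoforms.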

Additional observations from a re-analysis of the deposited data

Results flagged for a closer look

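Among 91 groups of 4 to 10 libraries, 3 held a library far from the others, and chance flags about 1 in 20 groups. Cox6b2 was at 2.03 CPM in control Hoxb7 replicate 1 and at 0.951 to 1.45 CPM in the 9 others. Ndufa4l2 was at 1.154 CPM in control Atp6b1v1 replicate 11 and at 0.549 to 0.647 CPM in the 3 other males. Cox4i2 was at 0.762 CPM in iAKI Hoxb7 replicate 4 and at 1.27 to 1.37 CPM in the 3 other males.

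The response to ischemia differed between drivers in 10 genes, of which 9 are given here as the log2 fold change in the Atp6b1v1 minus that in the Hoxb7 pulldown, among males. The differences were 0.82 for Ndufc2, 0.82 for Ndufaf3, 0.81 for Uqcrh, 0.77 for Atp5g3, 0.72 for Ndufb10, 0.72 for Ndufa8, 0.66 for Uqcrfs1, 0.66 for Ndufaf5 and 0.57 for Atp5f1.

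The response to injury was also compared between the sexes, in a fit over the pulldowns of mice of 5.5 months that was chosen after seeing the data. That fit held no term for the library series. All injured Hoxb7 libraries were in series A. Their male controls were replicates 2 and 3 in series A and 4 and 5 in series B. Their female controls were replicate 1 in series A, 6 in series B and 9 and 10 in series C. The part of the series in the differences between the sexes was not tested. In Hoxb7 pulldowns after ischemia, Cox4i2 responded more positively in males by 2.18 on the log2 scale, and the differences for Ndufs8, Ndufv2 and Ndufa8 were -0.55, -0.66 and -0.73 (4 of 90 genes, against 10.5% of all genes). Cox4i2 had low levels throughout and was already lower in males than in females in control Hoxb7 pulldowns. After ischemia its value was -1.21 in females of this fit and 0.98 in the fit of males. After volume depletion the differences were 2.27 for Cox4i2, 1.68 for Ndufa4l2, 0.98 for Cox6c and -0.79 for Ndufaf5 (4 of 90, against 16.0%). In Atp6b1v1 pulldowns edgeR called 0 of the 90 genes and 0 of all genes after either injury, with 0 and 4 of the 90 at an unadjusted p under 0.05.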

How the results depend on the processing

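The lower level of the respiratory chain genes in both pulldowns than in total RNA held in the direction and nearly in the count under each alternative run, with 83 to 86 genes past the threshold. The counts in the injury comparisons rest on few libraries and moved. Counts under the alternatives are given without the share of all genes, so a higher count does not set these genes apart from others. With at least a 2-fold change asked for, the counts were 3 for volume depletion in the Hoxb7 pulldown, 1 for volume depletion in the Atp6b1v1 pulldown, for the 2 injuries in the Hoxb7 pulldown, for the 2 control pulldowns and for sex, and 0 for ischemia in either driver, for the 2 injuries in the Atp6b1v1 pulldown and for the driver difference after ischemia.

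With DESeq2, 11 genes passed after ischemia in the Hoxb7 pulldown, 6 after ischemia and 5 after volume depletion in the Atp6b1v1 pulldown, 18 for the driver difference after ischemia and 2 after volume depletion, and 1 between control pulldowns. With edgeR's filterByExpr the counts were 4 and 5 in the Atp6b1v1 pulldown after ischemia and volume depletion, 16 for the driver difference after ischemia and 1 between control pulldowns. That last count was also 1 with DESeq2's size factors, without a filter and in males only, and 0 in females only. Size factors left 1 gene after ischemia in the Atp6b1v1 pulldown.

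With both sexes and sex as covariate, 1 gene passed after ischemia and 4 after volume depletion in the Hoxb7 pulldown, 28 and 12 in the Atp6b1v1 pulldown, 12 between the injuries in the Hoxb7 pulldown and 5 for the driver difference after ischemia. In females only the counts were 0 and 0 in the Hoxb7 pulldown and 5 after volume depletion in the Atp6b1v1 pulldown, and the sign turned for Cox5a (0.11) and Sdhb (0.076) after ischemia and for Ndufaf5 (0.054), Ndufaf4 (0.13), Sdha (0.26), Ndufa4l2 (-0.28), Cox4i2 (-0.91) and Cox4i1 (-0.038) after volume depletion in the Hoxb7 pulldown. With 25 males, younger ones included, 6 genes passed after volume depletion in the Atp6b1v1 pulldown, and 1 when only the groups compared were fitted. With the library series as a term, 29 genes passed after volume depletion in the Hoxb7 pulldown, 6 after ischemia in the Atp6b1v1 pulldown and, in fits added after seeing the data, 16 and 3 for the driver differences after ischemia and volume depletion. With mice of 5.5 months only, 13 genes differed by sex. The cause of these shifts was not tested.

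By the labels, 7 of 10 Hoxb7 and 8 of 11 Atp6b1v1 control pulldowns differed in sex, genotype or age from the total RNA library of the same number (mean correlations of 0.031 and 0.087 between pulldown and total RNA, single pairs from -0.398 to 0.59), so the replicate numbers did not pair the samples. In order of library number within each series, control pulldowns and total RNA libraries did match in sex, genotype and age. Whether libraries in that order share a mouse was not given, and such a pairing was not tested. With a replicate block, 7 genes passed between control pulldowns, 10 after volume depletion in the Hoxb7 pulldown, 1 in the Atp6b1v1 pulldown, and 0 after ischemia in the Atp6b1v1 pulldown and for its driver difference.

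Leaving out 1 library at a time gave 0 to 8 genes after ischemia and 13 to 21 after volume depletion in the Hoxb7 pulldown, 0 to 12 and 1 to 5 in the Atp6b1v1 pulldown, 17 to 33 and 11 to 26 between the injuries, and 1 to 22 and 0 to 1 for the driver differences. Of the values of single genes under the alternatives, 2339 stayed as they were, 90 lost and 32 gained a call, and 244 without a call moved by more than 1 SE. Isoforms near or under 1 CPM are limited by depth.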

Other observations

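Female pulldowns of 5.5 months were described in the same fit of both sexes as the comparison of their responses, chosen after seeing the data, with 3 or 4 libraries per group and no split by library series. After volume depletion, 14 of the 90 genes rose in the Atp6b1v1 pulldown and 0 fell, against 26.4% of all genes in either direction, and 5 rose in a fit of females alone. Atp5l (1.46 ± 0.33, with the same doubt about its copies), Cox6b2 (1.11 ± 0.33) and Ndufa13, an accessory subunit of complex I (0.96 ± 0.20), had the largest values, and Ndufv1 (0.46 ± 0.15) and Cox4i1 (0.52 ± 0.18) were among the 14. In the Hoxb7 pulldown 0 of the 90 passed after volume depletion (edgeR), against 0.274% of all genes, with 4 at an unadjusted p under 0.05.

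After ischemia, 13 genes rose in the Atp6b1v1 pulldown of females and 0 fell, against 10.4% of all genes, among them Ndufaf2 (0.96 ± 0.24), Ndufaf5 (0.74 ± 0.16) and Ndufaf3 (0.67 ± 0.18), 3 assembly factors of complex I. In the Hoxb7 pulldown 6 rose and 1 fell, against 13.4%, where the fit of females alone called 0. Sdha (0.66 ± 0.20) and Uqcr11 (0.65 ± 0.18) had the largest values there, and Atp5sl fell by 0.43. These genes were named after their values were seen.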
